A study of Mus musculus with 16 samples.

Results

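The constitutive proteasome genes were taken by symbol, as every gene of the expression table whose symbol starts with Psma, Psmb, Psmc or Psmd followed by a digit. The interferon-inducible Psmb8, Psmb9 and Psmb10 were left out. The rule found 37 of the 23355 genes, and no measured value entered it. Of these, 31 encode structural subunits of the proteasome. They divide into 7 alpha and 7 beta subunits of the 20S core, 6 ATPases and 3 other subunits of the base of the 19S cap, and 8 subunits of its lid. A further 3 genes (Psmd5, Psmd9 and Psmd10) encode chaperones that help to assemble the 19S base. Psma8, whose product serves the testis, and Psmb11, whose product serves the thymic cortex, encode 20S subunits restricted to those tissues. Psmc3ip was caught by its symbol only, since it encodes a partner of meiotic recombinases and no proteasome subunit.

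RNA was sequenced from 16 mouse tumours of a diffuse midline glioma model, a brain cancer of childhood, 7 of them with H3.3K27M and 9 with H3.3WT. H3.3K27M is the histone variant H3.3 with methionine in place of lysine 27. Both groups were C57BL/6 mice carrying Nestin Tv-a and p53 fl/fl, untreated, that received RCAS-PDGFA and RCAS-Cre on postnatal day 3, together with either RCAS-H3.3K27M or RCAS-H3.3WT. RCAS viruses enter only cells with the tv-a receptor, here under the Nestin promoter of neural progenitors, and tumours were taken at endpoint with no age given. The libraries of the table carry numbers, 10 to 16 for H3.3K27M and 1 to 9 for H3.3WT, assigned from the authors' group averages, and every direction below rests on that assignment. The design text counts 5 tumours with H3.3K27M and 3 without, which differs from the labels. Values are normalized counts, read counts divided by a size factor per library. Depth was 31636476 to 41730692 reads in the H3.3K27M libraries and 11439144 (library 8) to 40150969 reads in the H3.3WT libraries. Markers of oligodendrocyte progenitors were high in every tumour, with a summed level of 244446.7 to 563623.1 normalized counts in H3.3K27M and 167490.7 to 468866.7 in H3.3WT.

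The proteasome destroys proteins tagged with ubiquitin chains. The 20S core is a barrel of alpha and beta rings, and 3 beta subunits cut peptide bonds: Psmb6 after acidic, Psmb7 after basic and Psmb5 after hydrophobic residues, the last being the main target of the proteasome inhibitors used against myeloma. The 19S cap binds the ubiquitin chain (Psmd4 is a receptor for it), removes it (Psmd14 is the deubiquitinase of the lid) and unfolds and threads the protein through a ring of ATPases (Psmc1 to Psmc6). Subunit genes are transcribed together in many cell types, and Nfe2l1, a membrane-bound transcription factor released when the proteasome is overloaded, is known to raise them as a set through antioxidant response elements.

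Some of these genes share stretches of sequence with other genes, many of them pseudogenes, which matters with single reads of 50 bases. Every stretch of 50 bases of each gene's main transcript was compared with the other GENCODE M21 transcripts. The main transcript was the longest protein-coding one marked as principal there. More than 20% of stretches recurred in another gene for 7 of the 31 structural genes: Psmb5 (57.1%), Psmb3 (55.8%), Psma5 (55.4%), Psma4 (31.5%), Psmb7 (28.1%), Psmd2 (26.4%) and Psma3 (22.0%). Psmc3ip had 27.1%. For Psmb7 the only other gene was Nek6 and for Psmc3ip it was Mlx, both protein-coding and neither a pseudogene. Whether Nek6 and Mlx overlap these genes in the genome was not tested. How reads that fit more than 1 place or gene were handled is not given in the sources used here. The values of the genes with more than 20% of stretches shared are therefore uncertain. The sequences below are coding stretches of the most affected members, each shared letter for letter with the pseudogenes named after it.
Psma5, chromosome 3, transcript bases 529 to 578: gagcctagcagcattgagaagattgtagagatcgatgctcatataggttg
Psmb3, chromosome 11, transcript bases 366 to 415: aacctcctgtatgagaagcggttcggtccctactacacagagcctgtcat
Psmb5, chromosome 14, transcript bases 569 to 618: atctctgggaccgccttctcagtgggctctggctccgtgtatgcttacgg
The Psma5 stretch is also found in Gm8394 (chr10:85313488-85314439, plus strand, mm10) and Gm12989 (chr4:135715868-135716598, minus strand). The Psmb3 stretch is found in AC114990.1 (chr16:21896506-21897116, plus strand) and Gm14227 (chr2:155198632-155199260, minus strand). The Psmb5 stretch is found in Gm3375 (chr7:3181093-3181888, plus strand). The stretches lie in runs of 248 (Psma5), 169 (Psmb3) and 194 bases (Psmb5) in which every stretch of 50 bases recurs in some other gene. Whether any named pseudogene holds a whole run was not checked.

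Promoters were read from RefSeq (GRCm38.p6) as 250 bases before to 50 bases after the gene start, with 32 promoters for 30 of the 37 genes. The core of the antioxidant response element was searched as TGACNNNGC on both strands. It was found in 5 of 32 member promoters (15.6%), those of Psmb5, Psmb6, Psmc6, Psmd12 and Psmd9, against 12.4% of 32851 promoters. The CCAAT box, searched as CCAAT on both strands, was found in 40.6% of the member promoters and 37.4% of all. The promoters of the catalytic subunits Psmb5 (chr14:54617946-54618245, minus strand) and Psmb6 (chr11:70525107-70525406, plus strand) follow, with the element in capitals.
Psmb5: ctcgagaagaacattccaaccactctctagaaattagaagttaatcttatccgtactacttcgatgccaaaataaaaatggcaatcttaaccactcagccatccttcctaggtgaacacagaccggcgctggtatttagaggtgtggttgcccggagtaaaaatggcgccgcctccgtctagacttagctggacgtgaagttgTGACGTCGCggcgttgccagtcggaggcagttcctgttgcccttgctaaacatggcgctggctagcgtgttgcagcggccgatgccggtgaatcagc
Psmb6: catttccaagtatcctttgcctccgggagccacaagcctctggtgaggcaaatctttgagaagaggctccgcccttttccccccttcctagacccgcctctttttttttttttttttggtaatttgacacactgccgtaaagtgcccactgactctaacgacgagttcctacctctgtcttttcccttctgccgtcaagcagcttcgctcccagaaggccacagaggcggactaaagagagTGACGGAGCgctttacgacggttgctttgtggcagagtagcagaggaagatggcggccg
The element begins 47 bases before the gene start in Psmb5 and 9 bases before it in Psmb6. A match describes these letters and is no evidence of binding.

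All 31 structural genes were expressed in every tumour. To compare genes, levels were divided by the length of the main transcript. Which transcript the tumours expressed was not tested, and levels per kb rest on this choice. It gives 2846 bp for Psma3 and 2911 bp for Psma2, while the other alpha genes run from 914 (Psma7) to 1239 bp (Psma5). The mean level over the 16 libraries ran from 412.6 normalized counts per kb for the alpha subunit Psma3 to 10592 per kb for the catalytic beta subunit Psmb6. The highest after Psmb6 were Psma7, an alpha subunit, with 7293 ± 1579 per kb in H3.3K27M (SD, n = 7) and 8538 ± 2293 per kb in H3.3WT tumours (SD, n = 9), and Psmb4, a structural beta subunit, with 6810 ± 1818 per kb in H3.3K27M and 8575 ± 2666 per kb in H3.3WT tumours. The SDs of Psma7 and Psmb4 overlap in both groups, and a difference between these neighbours within the same libraries was not tested.

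The beta ring itself was uneven. Psmb6 had 9495 ± 2429 per kb in H3.3K27M and 11445 ± 3404 per kb in H3.3WT tumours, whereas the other catalytic subunits had far lower levels. Psmb7 had 2661 ± 391 per kb in H3.3K27M and 2693 ± 459 per kb in H3.3WT tumours. Psmb5 had 683 ± 184 per kb in H3.3K27M and 855 ± 259 per kb in H3.3WT tumours. Psma3 (412.6 per kb), Psma5 (679.3 per kb) and Psmb5 were the lowest structural genes, and each has more than 20% of stretches shared. Over the 7 structural genes with more than 20% of shared stretches the median level was 2242 per kb, and over the other 24 it was 3982 per kb. The ranges overlapped, from 412.6 to 3037 per kb in the 7 and from 1545 to 10592 per kb in the 24. Counted per 1000 unshared stretches in place of per kb, Psmb5 stood at 1921 and Psmb6 at 11595, a gap of 6.04-fold in place of 13.6-fold. Other spreads changed less on that scale. The alpha ring spread 15.7-fold in place of 19.4-fold, and the 31 structural genes 21.5-fold in place of 25.7-fold, with Psma3 still lowest at 538.4. Among the 7 genes with shared stretches the spread was wider, 10.1-fold in place of 7.36-fold.

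The ring subunits spread 19.4-fold in the alpha ring and 13.6-fold in the beta ring between their lowest and highest member. The lowest members, Psma3 and Psmb5, are among the genes with more than 20% of stretches shared, and no ATPase is. Alpha genes with at most 20% shared ran from 1791.5 per kb (Psma2) to 7993 per kb (Psma7). Beta genes with at most 20% shared ran from 5134 per kb (Psmb1) to 10592 per kb (Psmb6). The ATPases lay within 2.04-fold, between 2446 per kb for Psmc6 and 4984 per kb for Psmc3. The lid subunits lay within 2.90-fold, from Psmd11 at 1545 per kb to Psmd3 at 4477 per kb. The assembly chaperones were lower, with 448.3 per kb for Psmd10, 495.8 per kb for Psmd5 and 824.4 per kb for Psmd9.

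**Figure D1:**
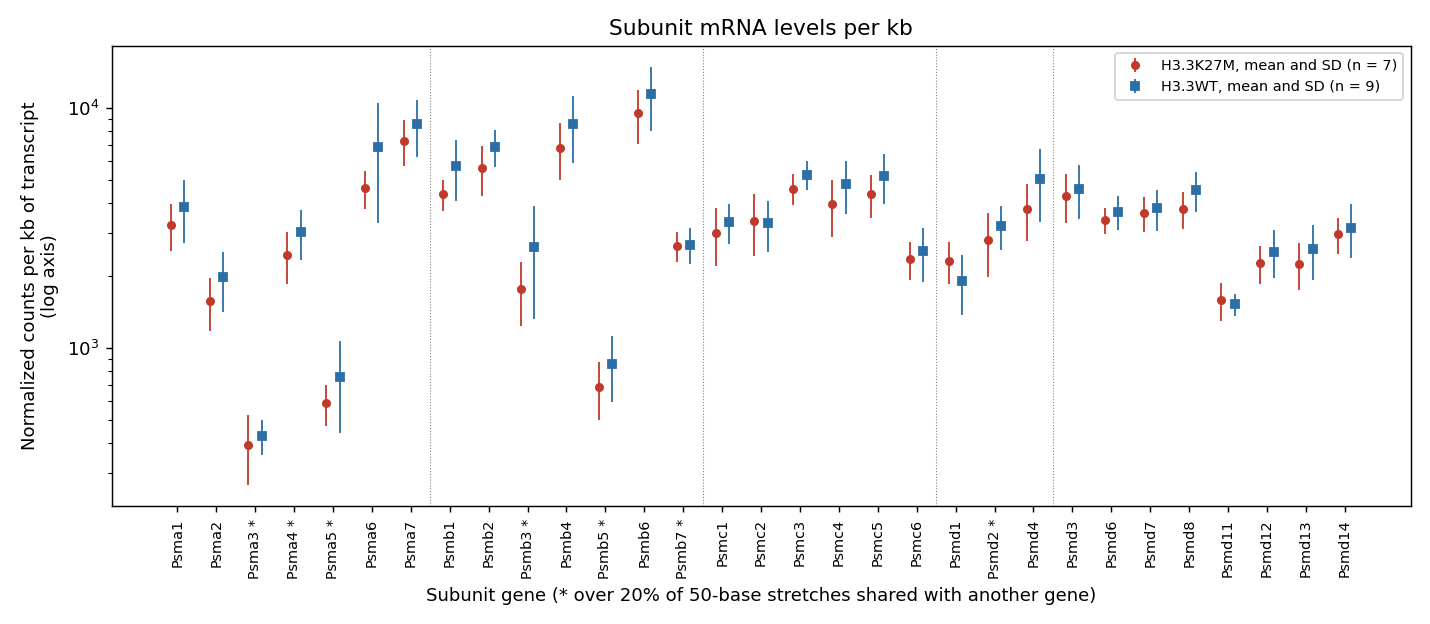
Level of each of the 31 structural subunits in normalized counts per kb of transcript on a log axis, grouped by role, as the mean and SD of 7 H3.3K27M libraries (circles, left) and 9 H3.3WT libraries (squares, right), with a star on genes with more than 20% of stretches shared. The ring subunits run from 412.6 (Psma3) to 10592 per kb (Psmb6) in their means over 16 libraries, while the ATPases stay within 2.04-fold. The lowest gene of each ring (Psma3 and Psmb5) carries a star, and no ATPase does.

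The tissue-restricted genes were near the floor. Psma8 had 8.08 to 107.5 normalized counts in H3.3K27M tumours, median 23.7, with the highest in library 12, and 1.08 to 59.8 in H3.3WT tumours, median 26.3. Psmb11 had 0 to 10.2 normalized counts in H3.3K27M and 0 to 7.15 in H3.3WT tumours and was the only gene of the 37 that did not pass the filter of 10 normalized counts in 7 libraries. With no read found, up to 3 reads remain possible, or 2.42 normalized counts in library 16 and 8.52 in library 8, the shallowest. Psmc3ip had 392.4 to 922.9 normalized counts in H3.3K27M and 260 to 778.2 in H3.3WT tumours.

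Within each group a few libraries set the range of nearly all subunits. Library 12 was the highest H3.3K27M library for 29 of the 31 structural genes, the exceptions being Psmb7 and Psmd7, where library 16 was higher. Library 8 was the highest H3.3WT library for 28 of the 31, the exceptions being Psma3 (library 5) and Psmb7 and Psmd1 (library 3). At the other end, library 14 was the lowest H3.3K27M library for 12 and library 13 for 9 genes, and library 2 was the lowest H3.3WT library for 12 and library 7 for 7 genes.

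Library 12 was high for every structural subunit. All 31 lay above their own median over the 16 libraries there, by 0.14 to 0.72 log2 units from the mean of all libraries, with a median of 0.40. The roles moved by like amounts in it, with medians of 0.40 for the alpha ring, 0.41 for the beta ring, 0.46 for the ATPases, 0.55 for the other base subunits and 0.35 for the lid. Over all genes tested 49.4% lay above their own median in library 12. Genes of other housekeeping complexes lay near or below their own means there: the median deviation was 0.02 for 81 cytosolic ribosomal protein genes, -0.07 for 37 complex I genes and -0.18 for 7 genes of the chaperonin CCT. Genes of Nfe2l1 control and its targets had a median of 0.42 with 14 of 16 above their own median. The immunoproteasome and PA28 genes had 0.70 with 5 of 5, and the 20S assembly factors, listed together with Akirin2, -0.06 with 2 of 6.

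Nfe2l1 itself had 7384 normalized counts in library 12, against 6787 to 8885 in the H3.3K27M group as a whole. Its partner Mafg, a small Maf protein, had 6069, the highest of the 16 libraries. Gclm, an enzyme of glutathione synthesis, had 5599, also the highest of the 16. Hmox1, which degrades haem, had 41481 there, above 3014 to 13552 in the other 6 H3.3K27M libraries and below library 8 (62831). Ngly1 and Nqo1 of the same list went the other way. Ngly1 had 884.8 in library 12, the lowest of the 16, and Nqo1 had 133.1, against 128.4 to 275.8 in the H3.3K27M group as a whole. Mafg, Gclm, Hmox1, Ngly1 and Nqo1 were chosen for mention after their values were seen, and these are values of 1 tumour with no test.

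Library 8 was high for 29 of the 31 structural genes, with a median deviation of 0.66 and a range of -0.18 to 1.54. It is the library with the fewest reads, and in it the ribosomal protein genes (0.99), the complex I genes (0.81) and the 20S assembly factors (1.08) were high as well. The CCT genes (0.16), the genes of Nfe2l1 control (0.16) and the factors bound to the 26S particle (0.11) lay nearer their means there. Its values also fell most steeply with exon length, by 0.31 log2 units for each doubling. Library 12 had a slope of -0.05. After the trend on exon length was taken out of every library, the structural subunits had a median deviation of 0.36 in library 12 (31 of 31 above their own median) and 0.56 in library 8 (29 of 31).

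Low libraries were 14 (1 of 31 above their own median, median deviation -0.35), 13 (2 of 31, -0.33), 10 (5 of 31, -0.12), 15 (9 of 31, -0.13) and 16 (11 of 31, -0.21) among the H3.3K27M tumours and library 2 (2 of 31, -0.20) among the H3.3WT tumours. With the trend on exon length removed, the medians were -0.22 in library 14 (7 of 31 above), -0.26 in library 13 (2 of 31), -0.19 in library 10 (4 of 31), -0.03 in library 15 (17 of 31) and 0.00 in library 16 (16 of 31) of H3.3K27M, and -0.22 in library 2 (1 of 31), -0.17 in library 4 (6 of 31) and -0.25 in library 6 (7 of 31) of H3.3WT. Library 3 of H3.3WT had 28 of 31 above, with a median of 0.17. The spread of a structural gene within its group was 0.19 to 0.53 log2 units (SD, 14 residual degrees of freedom), with a median of 0.34, against a median of 0.47 over all genes tested. The genes behind these medians were not matched by level. Psmd11, Psmc3 and Psmd6 varied least, with 0.19, 0.20 and 0.21, and Psmb3 most, with 0.53.

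**Figure D2:**
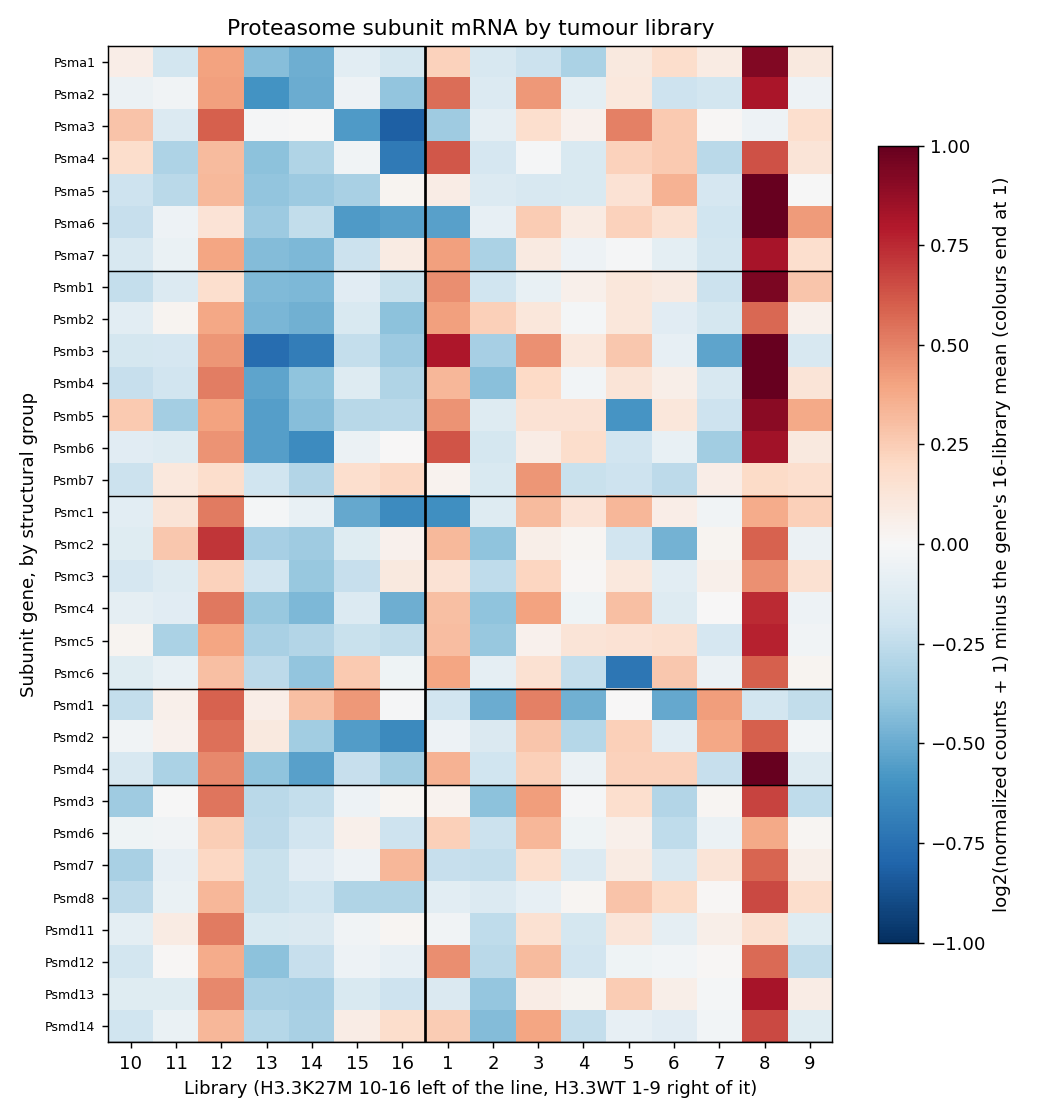
Deviation of each of the 31 structural subunits from its mean over 16 libraries (log2, colour scale ending at -1 and 1), genes ordered by role and libraries by group with H3.3K27M left of H3.3WT. Library 12 of H3.3K27M and library 8 of H3.3WT are high across nearly all roles, and libraries 13, 14 and 2 are low.

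**Figure D3:**
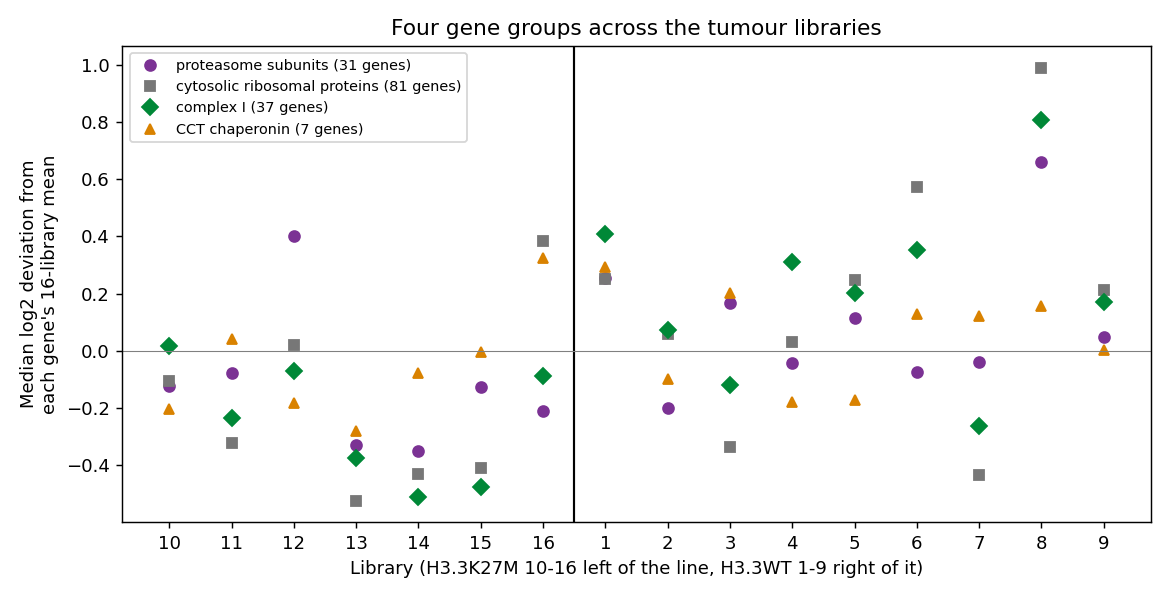
Median deviation (log2) of the 31 structural subunits in each library beside those of ribosomal protein, complex I and CCT genes, H3.3K27M libraries left of H3.3WT. In library 12 the proteasome stands at 0.40 with the other sets between -0.18 and 0.02, while in library 8 the proteasome (0.66), ribosomal (0.99) and complex I genes (0.81) are all high.

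The comparison of H3.3K27M with H3.3WT tumours asks whether the mutant histone goes with a different level of these genes. No member passed the threshold: limma called 0 of 15007 genes at an adjusted p under 0.05 (percent called 0), and the smallest adjusted p among the 36 tested members was 0.266, for Psmd10. At an unadjusted p under 0.05 limma had 992 genes below and 1306 above 0 over the whole table, edgeR's quasi-likelihood test called 0 at an adjusted p under 0.05, DESeq2's Wald test 108 and limma voom with quality weights 2. By limma 4 members were below 0 at an unadjusted p under 0.05 (Psma6, Psmb1, Psmd4 and Psmd10), where 6.61% of all genes were, and 0 members were above 0, where 8.7% of all genes were. In every tested member the groups overlapped, and over all genes 0.00666% had H3.3K27M wholly below and 0.0267% wholly above H3.3WT.

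The members nonetheless lay to one side. The log2 fold change, H3.3K27M minus H3.3WT, was below 0 for 31 of the 36 tested members, against 49.5% of all genes. The median was -0.21 over the members and 0.00 over all genes. These genes vary together within each group, so that the count is not one of independent genes. In bulk tumours, less mRNA per cell cannot be told apart from fewer cells that are rich in these mRNAs. By role, the fold change was below 0 for 14 of 14 ring subunits of the 20S core (median -0.31) and for 14 of 17 subunits of the 19S cap (median -0.14). With the trend on exon length removed, described further on, these were 11 of 14 (median -0.13) and 12 of 17 (median -0.03), and within the core 7 of 7 in the alpha ring (median -0.14) and 4 of 7 in the beta ring (median -0.05).

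In the alpha ring the fold changes ran from -0.48 to -0.17. Psma6 had 3862 to 6293 normalized counts in H3.3K27M tumours, median 4818, and 3931 to 16699 in H3.3WT tumours, median 6375, the highest being library 8. All 7 H3.3K27M libraries lay below the H3.3WT median, and the log2 fold change was -0.48 with a standard error of 0.22 (limma, adjusted p = 0.316). Psma4 had 1923 to 3905 normalized counts in H3.3K27M tumours, median 2546, and 2597 to 4882 in H3.3WT tumours, median 3422. The log2 fold change of Psma4 was -0.32 with a standard error of 0.17 (limma, adjusted p = 0.365), and 5 of 7 H3.3K27M libraries lay below the H3.3WT median. Psma5, Psma2, Psma1, Psma7 and Psma3 followed with log2 fold changes of -0.31, -0.31, -0.23, -0.21 and -0.17.

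In the beta ring they ran from -0.50 to -0.01. Psmb1, a structural beta subunit, had 6411 to 9810 normalized counts in H3.3K27M tumours, median 7484, and 7530 to 16781 in H3.3WT tumours, median 9318. Its log2 fold change was -0.37 with a standard error of 0.16 (limma, adjusted p = 0.290), with 6 of 7 H3.3K27M libraries below the H3.3WT median. Psmb2 had 3802 to 6942 normalized counts in H3.3K27M tumours, median 4782, and 4693 to 7908 in H3.3WT tumours, median 5729, with a log2 fold change of -0.30 and a standard error of 0.14 (limma, adjusted p = 0.327). Psmb3, another of the genes with shared sequence, had a log2 fold change of -0.50, the lowest of the 36 members, and Psmb4 had -0.32.

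The catalytic subunits had unequal fold changes, none of them called. Psmb5 had 458 to 892 normalized counts in H3.3K27M tumours, median 556.2, and 447.4 to 1256 in H3.3WT tumours, median 742.5. For Psmb5 the log2 fold change was -0.31 with a standard error of 0.20 (limma, adjusted p = 0.471). Psmb6 had 5289 to 11153 normalized counts in H3.3K27M tumours, median 7560, and 6408 to 14576 in H3.3WT tumours, median 8570. For Psmb6 the log2 fold change was -0.26 with a standard error of 0.18 (limma, adjusted p = 0.502). Psmb7 had 2509 to 3544 normalized counts in H3.3K27M tumours, median 3309, and 2562 to 4176 in H3.3WT tumours, median 3146. For Psmb7 the log2 fold change was -0.01, with a 95% interval of -0.28 to 0.25, and 4 of 7 H3.3K27M libraries lay above the H3.3WT median. Differences between these fold changes were not tested.

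Of the ATPases, 5 of 6 had a log2 fold change below 0, with a median of -0.19. Psmc4 had 4436 to 8938 normalized counts in H3.3K27M tumours, median 5636, and 4695 to 10436 in H3.3WT tumours, median 6219. The highest values were those of libraries 12 and 8, and the log2 fold change was -0.29 with a standard error of 0.17 (limma, adjusted p = 0.419). Psmc3 had 6194 to 9464 normalized counts in H3.3K27M tumours, median 7177, and 6756 to 11084 in H3.3WT tumours, median 8657, with a log2 fold change of -0.20 and a standard error of 0.12. Psmc2 had a log2 fold change of 0.03.

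Among the other base subunits Psmd4 and Psmd1 lay on opposite sides. Psmd4, the ubiquitin receptor, had 3943 to 7993 normalized counts in H3.3K27M tumours, median 4605, and 4903 to 12224 in H3.3WT tumours, median 6722. Its log2 fold change was -0.39 with a standard error of 0.18 (limma, adjusted p = 0.325), and 6 of 7 H3.3K27M libraries lay below the H3.3WT median. Psmd1, the large scaffold of the base, had 5334 to 9428 normalized counts in H3.3K27M tumours, median 6556, and 4412 to 8906 in H3.3WT tumours, median 5486. In Psmd1 the log2 fold change was 0.30 with a standard error of 0.17 (limma, adjusted p = 0.395), and 6 of 7 H3.3K27M libraries lay above the H3.3WT median. It was the highest of the 31 structural genes, ahead of Psmd11 with 0.05 and Psmc2, and no other structural gene was above 0.

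In the lid 7 of 8 were below 0, with a median of -0.10. Psmd8 had 5193 to 8049 normalized counts in H3.3K27M tumours, median 5467, and 5814 to 10112 in H3.3WT tumours, median 6496, with a log2 fold change of -0.26 and a standard error of 0.13 (limma, adjusted p = 0.353). Psmd13 had 3745 to 6593 normalized counts in H3.3K27M tumours, median 4253, and 3621 to 8382 in H3.3WT tumours, median 4932, with a log2 fold change of -0.20 and a standard error of 0.16. Psmd14, the deubiquitinase, had 3723 to 5857 normalized counts in H3.3K27M tumours, median 4447, and 3445 to 7348 in H3.3WT tumours, median 4401. In Psmd14 the log2 fold change was -0.07 with a 95% interval of -0.40 to 0.25.

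Psmd10, a chaperone of the base known as the oncoprotein gankyrin, was chosen for this text after its values were seen. It had 432.7 to 716.1 normalized counts in H3.3K27M tumours, median 505.7, and 517.2 to 1080 in H3.3WT tumours, median 697.8. Its log2 fold change was -0.44 (95% interval -0.80 to -0.09), and 6 of 7 H3.3K27M libraries lay below the H3.3WT median. The other chaperones had log2 fold changes of -0.19 (Psmd9) and 0.06 (Psmd5).

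**Figure D4:**
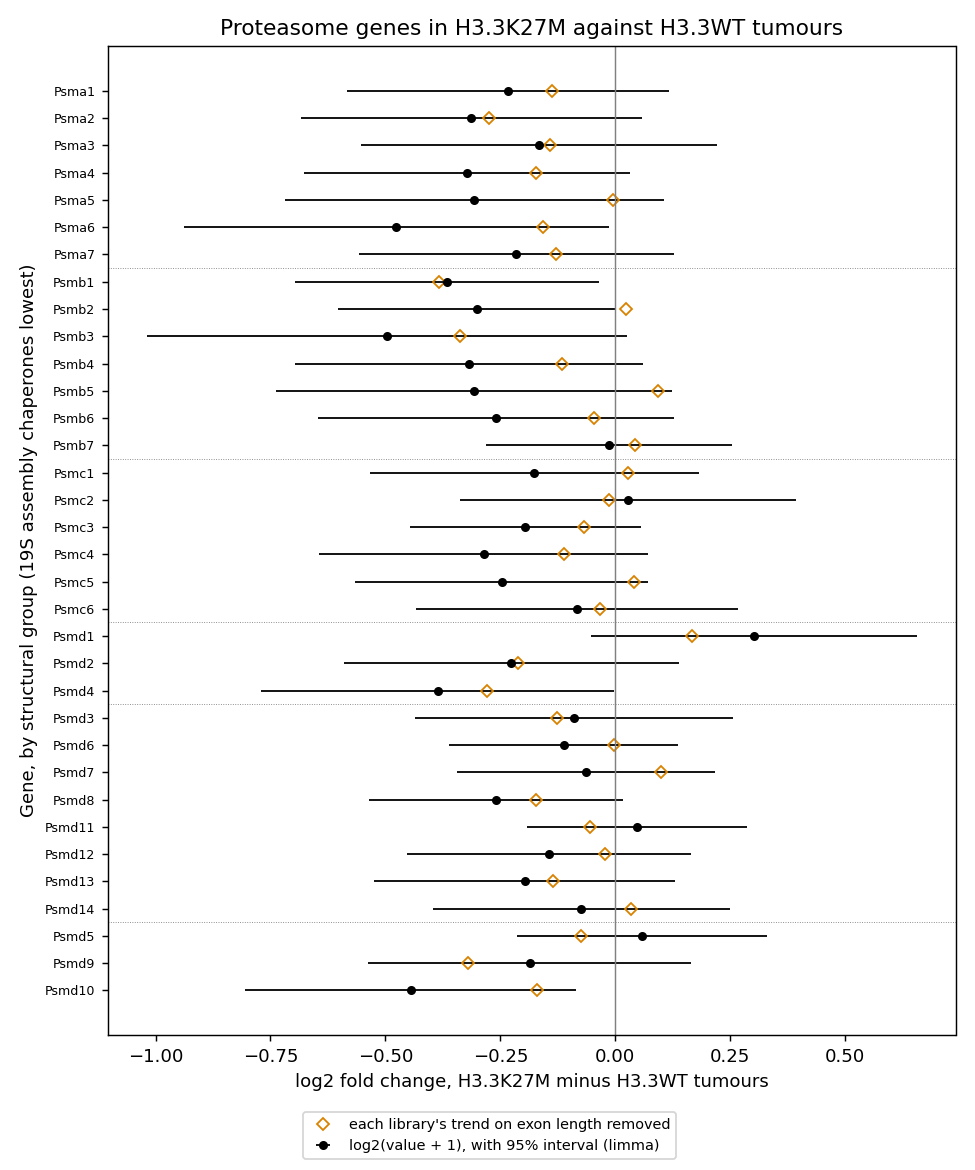
Log2 fold change of the 31 structural subunits and 3 assembly chaperones, H3.3K27M minus H3.3WT, with its 95% interval from limma (black points and bars), grouped by role, beside the value after the trend on exon length was removed (open diamonds). Of the structural subunits 28 of 31 lie below 0, and every black point stays between -0.50 (Psmb3) and 0.30 (Psmd1).

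The counts depended on single libraries of both groups. Without library 12, 13 of 36 members were below 0 at an unadjusted p under 0.05, against 8.17% of all genes, and the median was -0.30. Without library 8, 1 of 36 was, against 5.12% of all genes, and the median was -0.14. The other H3.3K27M libraries gave 1 without 13 (5.45% of all genes), 1 without 14 (4.4%), 2 without 15 (4.9%) and 2 without 16 (5.88%). The H3.3WT libraries gave 8 without 2 (6.66%), 2 without 3 (8.31%), 2 without 5 (5.46%) and 7 without 7 (8.34%). Without libraries 12 and 8, a setting chosen after the data were seen, 12 of 36 were, against 6.48% of all genes, with a median of -0.24 and 34 of 36 below 0, against 50% of all genes. Without libraries 6 and 8, 0 of 36 were, against 3.72% of all genes. With limma voom and quality weights 8 of 36 were below 0 at an unadjusted p under 0.05, against 10.9% of all genes, and 1 was above 0, against 12.6%. The count moved by no more than 1.5 times without libraries 1, 4, 6, 9, 10 or 11. None of these settings gave a member an adjusted p under 0.05.

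Markers of other cell types in the tumours had ranges that overlapped between the groups, with medians that differed for several lists. The summed level of 12 neuron markers was 30439.5 to 47109 normalized counts in H3.3K27M and 31579.8 to 82916.8 in H3.3WT tumours, with 0 of 12 at 0 in any library. That of 9 microglia and macrophage markers was 12043.4 to 24636.5 in H3.3K27M and 13224.2 to 29989.8 in H3.3WT tumours, with 0 of 9 at 0. With the neuron markers as a covariate the members' median was -0.23, and with the microglia markers it was -0.20, with 2 members below 0 at an unadjusted p under 0.05, against 5.79% of all genes. Several marker lists leaned with the groups, where 49.5% of all genes were below 0. Of the 12 neuron markers, 8 were below 0 (median log2 fold change -0.52). Of 6 mature oligodendrocyte markers, 5 were below 0 (median -0.67), with Mobp at 0 in at least 1 library. The sums of these 6 were 16119.4 to 91187.1 in H3.3K27M (median 24657.4) and 15030.4 to 217327.1 in H3.3WT tumours (median 24198.4). Of 7 pericyte and fibroblast markers, 7 were below 0 (median log2 fold change -0.66), and their sums were 4215.1 to 17406 in H3.3K27M (median 7044) and 4669.2 to 26953.3 in H3.3WT tumours (median 12093.5). Of 7 endothelial markers, 6 were below 0 (median -0.42), with sums of 4559.5 to 13049.5 in H3.3K27M (median 8305.2) and 4861.8 to 20139.7 in H3.3WT tumours (median 12866.3). The 3 measured red blood cell markers were below 0 (median -2.62), with sums of 58.2 to 13030.7 in H3.3K27M (median 799.6) and 91.1 to 103045.8 in H3.3WT tumours (median 10128.5). Of 6 neutrophil markers, 4 (Ngp, Camp, Ly6g and Mpo) were at 0 in at least 1 library. The 2 that passed the filter were below 0 (median -1.86), both at an unadjusted p under 0.05, against 6.61% of all genes. Without libraries 6 and 8 their median was -1.22, and 0 of the 2 were below 0 at an unadjusted p under 0.05. The sums over the 6 neutrophil genes were 12.7 to 140.3 in H3.3K27M (median 82.4) and 31.9 to 1631.9 in H3.3WT tumours (median 207.2). Markers of cycling cells leaned the other way, with 7 of 8 above 0 (median 0.32) and sums of 28219.6 to 56881.9 in H3.3K27M (median 42988.3) and 15674.5 to 50911 in H3.3WT tumours (median 36483.8), as did those of oligodendrocyte progenitors, with 7 of 8 above 0 (median 0.37). No marker of the pericyte, endothelial, red blood cell or cycling lists was at 0 in any library, and the part of these lists in the result was not tested.

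Exon length moved with the groups over the whole table. Sorted into 10 bins by exon length, all genes tested had a median log2 fold change of -0.35 in the bin of the shortest (median 1336 bp), where 83.1% of genes were below 0, and 0.30 in that of the longest (median 12467.5 bp), where 16.7% were. The structural proteasome genes have a median exon length of 2808 bp, against 4424 bp over all genes. Psmd1, the structural gene with the highest fold change, has 7265 bp, and the 14 ring genes have a median of 2335 bp. After the exon length trend was taken out of every library, the median of the members was -0.07, 26 of 36 were below 0, against 50.4% of all genes, and 1 (Psmb1, -0.38) was below 0 at an unadjusted p under 0.05, against 4.56% of all genes. In that setting 7 structural genes were above 0 that had been below it: Psmb2 (0.02), Psmb5 (0.09), Psmb7 (0.04), Psmc1 (0.03), Psmc5 (0.04), Psmd7 (0.10) and Psmd14 (0.03). Of the other members past an unadjusted p of 0.05 in the comparison as first given, Psma6 stood at -0.16, Psmd4 at -0.28 and Psmd10 at -0.17. Psmc2 (-0.01) and Psmd11 (-0.05) crossed the other way, and Psmd1 stood at 0.17.

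**Figure D5:**
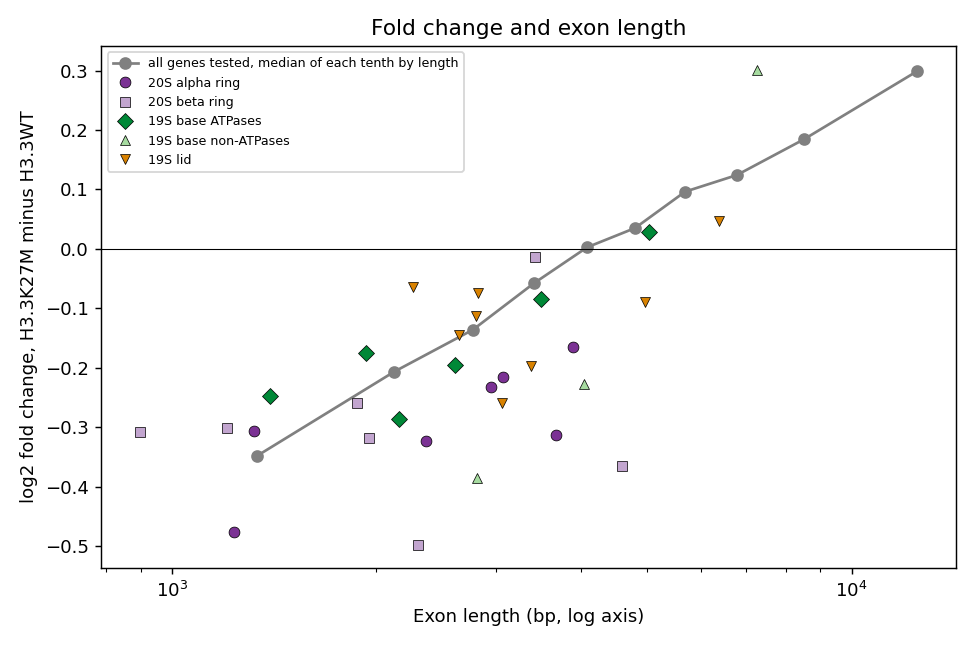
Log2 fold change (H3.3K27M minus H3.3WT) against exon length in bp on a log axis, with the 31 structural proteasome genes as points over the median of all genes in each of 10 bins of length. The medians of all genes run from -0.35 at 1336 bp to 0.30 at 12467.5 bp, and the proteasome genes lie mostly among the shorter genes.

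Of the other protein complexes, the ribosome and complex I have short genes (median exon lengths of 1739 and 1495 bp), and the chaperonin CCT has genes of about the length of all genes (4201 bp). Of 81 cytosolic ribosomal protein genes, 78 had a log2 fold change below 0 (median -0.35), and 17 were below 0 at an unadjusted p under 0.05. Of 37 complex I genes, 36 were below 0 (median -0.49), with 27 at an unadjusted p under 0.05. Of 7 CCT genes, 5 were below 0 (median -0.04), with 0 at an unadjusted p under 0.05. Over all genes 49.5% were below 0 and 6.61% were so at an unadjusted p under 0.05. With the length trend removed, 59 of 81 ribosomal genes were below 0 (median -0.15), with 3 at an unadjusted p under 0.05. In that setting 30 of 37 complex I genes were below 0 (median -0.13), with 11 at an unadjusted p under 0.05, and 4 of 7 CCT genes (median 0.00), with 0, against 50.4% and 4.56% of all genes.

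Interferon replaces the catalytic subunits by inducible ones: Psmb8 takes the place of Psmb5, Psmb9 that of Psmb6 and Psmb10 that of Psmb7. Psmb8 had 2520 to 7630 normalized counts in H3.3K27M tumours, median 5003, and 825 to 7420 in H3.3WT tumours, median 2412. Psmb9 had 843.4 to 3937 normalized counts in H3.3K27M tumours, median 1607, and 306.8 to 3040 in H3.3WT tumours, median 573.4. For both, all 7 H3.3K27M libraries lay above the H3.3WT median, while the H3.3WT libraries 3, 5 and 9 lay above the median of the H3.3K27M tumours. Psmb10 had 1208 to 3258 normalized counts in H3.3K27M tumours, median 2379, and 1449 to 3523 in H3.3WT tumours, median 2219. The log2 fold changes were 0.63, 1.10 and -0.17, with adjusted p-values of 0.473, 0.304 and 0.759 by limma.

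The ratio of each inducible subunit to the constitutive one it replaces was compared within each tumour, on the log2 scale of values plus 1. The ratio of Psmb9 to Psmb6 was -2.06 ± 0.80 in H3.3K27M (SD, n = 7) and -3.42 ± 1.39 in H3.3WT tumours (SD, n = 9). The difference was 1.36, with a two-sided exact permutation p of 0.04 over 11440 assignments and 0.120 adjusted over the 3 pairs, so it did not hold after adjustment. The ratio of Psmb8 to Psmb5 was 2.88 ± 0.58 in H3.3K27M and 1.94 ± 1.22 in H3.3WT tumours, a difference of 0.94 (exact permutation p = 0.0826, 0.124 adjusted). The ratio of Psmb10 to Psmb7 was -0.57 ± 0.60 in H3.3K27M and -0.41 ± 0.41 in H3.3WT tumours, a difference of -0.16 (exact permutation p = 0.533). For the Psmb8 and Psmb9 ratios all 7 H3.3K27M libraries lay above the H3.3WT median. For Psmb8 to Psmb5 the H3.3K27M libraries lay between 2.33 and 3.69 and the H3.3WT libraries between 0.42 and 3.98. For Psmb9 to Psmb6 the H3.3K27M libraries lay between -3.21 and -0.93 and the H3.3WT libraries between -5.01 and -1.46.

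The activators that open the core showed no common direction. The interferon-inducible PA28 subunits had log2 fold changes of 0.08 (Psme1, 2000 to 3754 normalized counts in H3.3K27M and 1650 to 3650 in H3.3WT tumours) and -0.09 (Psme2, 541.9 to 1459 in H3.3K27M and 639.6 to 1529 in H3.3WT tumours). Of the 5 immunoproteasome and PA28 genes 3 were above 0, and 1, Psmb9, was so at an unadjusted p under 0.05, where 8.7% of all genes were. With the length trend removed 5 of 5 were above 0, again with 1 (Psmb9, 1.14) at an unadjusted p under 0.05, against 4.81% of all genes. Without libraries 6 and 8 Psmb9 stood at 0.91, and 0 of the 5 passed. Psme4, the PA200 activator, had a log2 fold change of 0.28, Psme3, the nuclear PA28 gamma, 0.02 and Psmf1, an inhibitor of the core, -0.13. Psme4, Psme3 and Psmf1 stood at 0.108, 0.116 and -0.235 with the length trend removed.

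Factors that build the 20S core, listed together with Akirin2, lay below 0 in 6 of 6, with a median of -0.39. Of the list, 3 (Akirin2, Psmg1 and Psmg4) did so at an unadjusted p under 0.05. Of all genes 49.5% were below 0 and 6.61% were so at an unadjusted p under 0.05. With the length trend removed 5 of 6 were below 0 (median -0.17), and 0 at an unadjusted p under 0.05. Without libraries 6 and 8, 6 of 6 were below 0 (median -0.26), and again 0 at an unadjusted p under 0.05. Akirin2, which brings proteasomes into the nucleus, had 2263 to 3254 normalized counts in H3.3K27M tumours, median 2900, and 2399 to 4923 in H3.3WT tumours, median 3604 (log2 fold change -0.37, limma, adjusted p = 0.274). Psmg1 had 467.1 to 920.7 normalized counts in H3.3K27M tumours, median 667.7, and 557.4 to 1631 in H3.3WT tumours, median 898.7 (log2 fold change -0.46). Psmg4 had 420.4 to 810.6 normalized counts in H3.3K27M tumours, median 768, and 542.1 to 1708 in H3.3WT tumours, median 891.5 (log2 fold change -0.49). For Akirin2 and Psmg4 all 7 H3.3K27M libraries lay below the H3.3WT median, and with the length trend removed Akirin2 stood at -0.13, Psmg1 at -0.16 and Psmg4 at 0.03. Their median exon length was 1724.5 bp over the 6 factors.

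Of 11 measured factors bound to the 26S particle or shuttling substrates to it, 6 were below and 5 above 0, and 1 was above 0 at an unadjusted p under 0.05, a share of 11 genes near the 8.7% of all genes. With the length trend removed 0 were, and with the GC trend removed 3 were below 0 at an unadjusted p under 0.05, against 6.14% of all genes. The 1 gene above 0 was Ube3c, a ubiquitin ligase that extends chains on proteasome-bound substrates, with 2298 to 6385 normalized counts in H3.3K27M tumours, median 5513, and 2427 to 4613 in H3.3WT tumours, median 3255. Its log2 fold change was 0.56 with a standard error of 0.19 (limma, adjusted p = 0.259), and 6 of 7 H3.3K27M libraries lay above the H3.3WT median, the exception being library 10, the lowest of all 16. Without library 10 the log2 fold change of Ube3c was 0.74 with an adjusted p of 0.0452 by limma. With the length trend removed the log2 fold change of Ube3c, a gene of 9544 bp of exon, was 0.35 with a standard error of 0.18 (limma, adjusted p = 0.555). Shfm1, a small lid component, had a log2 fold change of -0.42 and Uchl5, a deubiquitinase, -0.31.

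The transcriptional control of the set showed no called change. Nfe2l1 had 6787 to 8885 normalized counts in H3.3K27M tumours, median 7732, and 5271 to 10935 in H3.3WT tumours, median 6307. All 7 H3.3K27M libraries lay above the H3.3WT median, with libraries 2 and 7 of H3.3WT higher still, and the log2 fold change was 0.14 with a standard error of 0.15 (limma, adjusted p = 0.673). Of 16 genes of Nfe2l1 control and its targets, 9 were above and 7 below 0, with a median of 0.06, and 0 were past an unadjusted p of 0.05 by limma. The smallest p in the list belonged to Maff, a small Maf protein (log2 fold change -0.49), followed by Sel1l (0.27) and Syvn1 (-0.20), which form a ligase of the endoplasmic reticulum. Maff, Sel1l and Syvn1 stood at -0.36, 0.09 and -0.23 with the length trend removed.

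Among the genes that supply and activate ubiquitin, Ubb, which encodes ubiquitin repeats, had 6076 to 10493 normalized counts in H3.3K27M tumours, median 7537, and 7577 to 13915 in H3.3WT tumours, median 11050. In Ubb the log2 fold change was -0.45 with a standard error of 0.14 (limma, adjusted p = 0.257), and all 7 H3.3K27M libraries lay below the H3.3WT median. With the length trend removed Ubb, with 1675 bp of exon, stood at -0.21 (standard error 0.11). Uba6, an enzyme that activates ubiquitin, had 847.9 to 1535 normalized counts in H3.3K27M tumours, median 1048, and 440.4 to 1077 in H3.3WT tumours, median 619. In Uba6 the log2 fold change was 0.78 with a standard error of 0.20 (limma, adjusted p = 0.257), all 7 H3.3K27M libraries lay above the H3.3WT median, and DESeq2's Wald test gave it an adjusted p of 0.0431. Uba6, with 8159 bp of exon, stood at 0.62 (standard error 0.20) with the length trend removed.

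In the authors' deposited table no proteasome member had an adjusted p under 0.05 either, and the smallest adjusted p was 0.100, for Psmd10. The authors' deposited table has 7 of 37 members below 0 at an unadjusted p under 0.05, against 7.71% of the 19833 genes with a p in it. Log2 fold changes in the authors' deposited table were -0.51 for Psma6, -0.50 for Psmb3, -0.43 for Psmd10, -0.37 for Psmb1, -0.37 for Psmd4 and 0.26 for Psmd1. The header of the authors' deposited table names no direction for them, and their signs are those of H3.3K27M minus H3.3WT.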

How the data were processed

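Tumour RNA was made into TruSeq mRNA libraries and read as single 50 bp reads, per the protocols in the labels. STAR 2.7, HTSeq, DESeq2 and mm10 are named in the submitters' processing notes, and the strand setting is not given in the sources used here. Each deposited library column holds a signal of 0 or more. From the values, the authors divided read counts by a size factor per library, since 100% of values are whole multiples (within 0.01 reads) of the library's smallest value above 0. Per the file headers the table also holds the authors' log2 fold change with its standard error, Wald score, raw p-value and adjusted p-value.

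Beside 1 emptied line, 23563 lines held values, and 208 of them repeated an ID with equal values, which left 23355 genes, 23322 with an exon length (GENCODE M21). Libraries 10 to 16 stand for H3.3K27M and 1 to 9 for H3.3WT, because the authors averaged these columns and the labelled groups, 7 and 9 tumours, match only so. The design text calls the tumours independent but names no animals, so p-values measure only the spread between these samples. limma 3.58.1 with a mean-variance trend was fitted to log2(value + 1) of 15007 genes that reached 10 normalized counts in 7 libraries or more, with Benjamini-Hochberg adjustment over all of them and a threshold of 0.05. This scale understates the change of low genes. Fold changes are H3.3K27M minus H3.3WT. The step was also run on simulated counts. Genes varied independently in them and no trend on exon length was put in, so that run does not cover these features of the data. Recovered reads gave the counts for edgeR 4.0.16 and DESeq2 1.42.0 (R 4.3.3). Depth differs most for library 8, where low genes are known least well, and limits from a count of 0 cover counting error only.

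The members and lists were chosen with earlier results of these data known. Named were the catalytic subunits, Psmd14, Psmd4, the 2 smallest p per structural role, up to 3 genes per pathway list, all immunoproteasome and PA28 genes and Nfe2l1. Alternatives were TMM and upper quartile scaling, DESeq2, edgeR, voom with quality weights, pseudocounts of 0.5 and 5, other filters, length or GC trends removed, libraries left out, and neuron or microglia markers as covariates. The ratios of inducible to constitutive subunits and the fit without libraries 8 and 12 were added after the data were seen. The deposited fold values were used only as quoted. 2 genes of a pathway list are not reported here.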

Additional observations from a re-analysis of the deposited data

Results flagged for a closer look

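In 118 groups of library values, 25 had a highest or lowest library far from the rest by Dixon's criterion, which chance gives in about 1 in 20 groups. Most trace to library 12 in H3.3K27M and library 8 in H3.3WT tumours, and since the subunits vary together they are not separate events.

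In library 12 of H3.3K27M the highest values stood apart for Psmb3 (2144 normalized counts), Psmb4 (12700), Psmc4 (8938), Psmc5 (8167), Psmd4 (7993), Psmd11 (6246), Psmd13 (6593), Psmd3 (13625) and Psmd8 (8049), and for the testis-restricted Psma8 (107.5, next highest 33.6). In library 8 of H3.3WT they stood apart for Psma1 (7956), Psma5 (1918), Psma6 (16699, next highest 7702), Psmb1 (16781), Psmb4 (17793), Psmc5 (10590), Psmd4 (12224), Psmd13 (8382), Psmd7 (8726) and Psmd8 (10112), and for the assembly factor Psmg1 (1631). Psmb4, Psmc5, Psmd4, Psmd8 and Psmd13 had both.

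Outside these libraries, library 16 of H3.3K27M stood apart for Psmd5 (3003) and Psmf1 (2054), library 3 of H3.3WT for Psmf1 (3638), and library 10 of H3.3K27M was low for Ube3c (2298, next lowest 4921).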

How the results depend on the processing

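No paired analysis was possible because the numbers of the table's libraries cannot be tied to the replicate numbers of the labels. Over all genes limma called 0, DESeq2's Wald test 108 and voom with quality weights 2, and leaving out 1 library gave 0 to 13 (13 without library 10, 1 without library 3). The count of members below 0 at an unadjusted p under 0.05 was 4, and it was 1 with the length trend removed, 8 with voom, 2 with the microglia markers, 0 without libraries 6 and 8, 12 without libraries 8 and 12, and 1 to 13 with 1 library left out. The count above 0 was 0, 1 with voom and 0 to 1 with 1 library left out. The median of the members stayed below 0 in the 31 alternatives, between -0.30 and -0.14 with 1 library left out and at -0.07 with the length trend removed.

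The difference in the Psmb9 to Psmb6 ratio was 1.16 to 1.61 with 1 library left out, with an exact permutation p above 0.05 in 10 of the 16 cases, and 1.09 without libraries 6 and 8 (exact permutation p = 0.107). That of Psmb8 to Psmb5 was 0.752 to 1.197, under 0.05 without H3.3WT library 3 or 5, and that of Psmb10 to Psmb7 was -0.26 to -0.03. Signs turned with the length trend removed for Psmb10 (0.063), Psmb2 (0.024), Psmb5 (0.093), Psmb7 (0.044), Psmd14 (0.034), Psme2 (0.142) and Psmg4 (0.034), and with the GC trend removed for Psme3 (-0.0077). With 1 library left out the sign of values near 0 turned for Psmb7 (-0.049 to 0.041), Psmd14 (-0.136 to 0.0049, above 0 without library 8), Psme1 (-0.0075 to 0.153), Psme2 (-0.209 to 0.029) and Psme3 (-0.059 to 0.068). The cause was not tested. The depth of library 8 limits what low genes such as Psma8 and Psmb11 can show.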
